A study of Mus musculus with 8 samples.

Results

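The 8 genes described here mark macrophages or help to set their fate: the transcription factors Spi1 (PU.1), Cebpa, Cebpb and Maf, the surface proteins Adgre1 (F4/80) and Itgam (CD11b), and the products Lyz2 (lysozyme M) and Mpeg1 (perforin-2). They were taken by symbol from a table of 55801 genes, in which each symbol has 1 row. The rule uses symbols and no measured value, although it was drawn up with earlier results of these data known. All 8 were among the 12189 genes tested. The cells were peritoneal macrophages of male C57BL/6 mice, drawn into the abdomen by thioglycollate broth and then cultured. Each of the 4 groups had 2 samples. NC received the vehicle DMSO, and LPS received DMSO and then lipopolysaccharide, a wall component of Gram-negative bacteria, at 100 ng/ml for 4 h. C498 received the small molecule C498 at 15 µM with no LPS, and C498+LPS received C498 for 0.5 h before the same LPS challenge. Neither the labels nor the methods say whether the samples of a group came from separate mice or cultures, so p-values measure only the spread between these samples, which may be technical.

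PU.1 is an ETS factor that opens myeloid genes early in the lineage, and its dose helps to decide between macrophage and other fates. C/EBPα and C/EBPβ are bZIP factors that bind the same kind of site, the first tied to myeloid commitment and quiescence and the second to inflammatory activation. c-Maf restrains self-renewal of mature macrophages. Elicited peritoneal macrophages are known to express F4/80, CD11b and lysozyme and to respond strongly to LPS through Toll-like receptor 4.

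All 8 genes were expressed in every sample. TPM levels are divided by gene length and scaled to the same total in every sample, so they can be set beside each other across genes. Lyz2 was the most abundant, at rank 3 of all genes by mean TPM level and between 0.783% and 1.6% of the TPM total of a sample. Mpeg1 ranked 122, Cebpb 179, Adgre1 313, Spi1 451, Itgam 689, Cebpa 1221 and Maf 4945 by the mean over all 8 samples, with Cebpa between 711 and 3639 in single samples. The clearest differences between groups were a fall of Cebpa with LPS, with or without C498, and a lower Spi1 level in both groups that received C498. In bulk RNA, fewer cells of a type and less RNA per cell cannot be told apart.

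**Figure D1:**
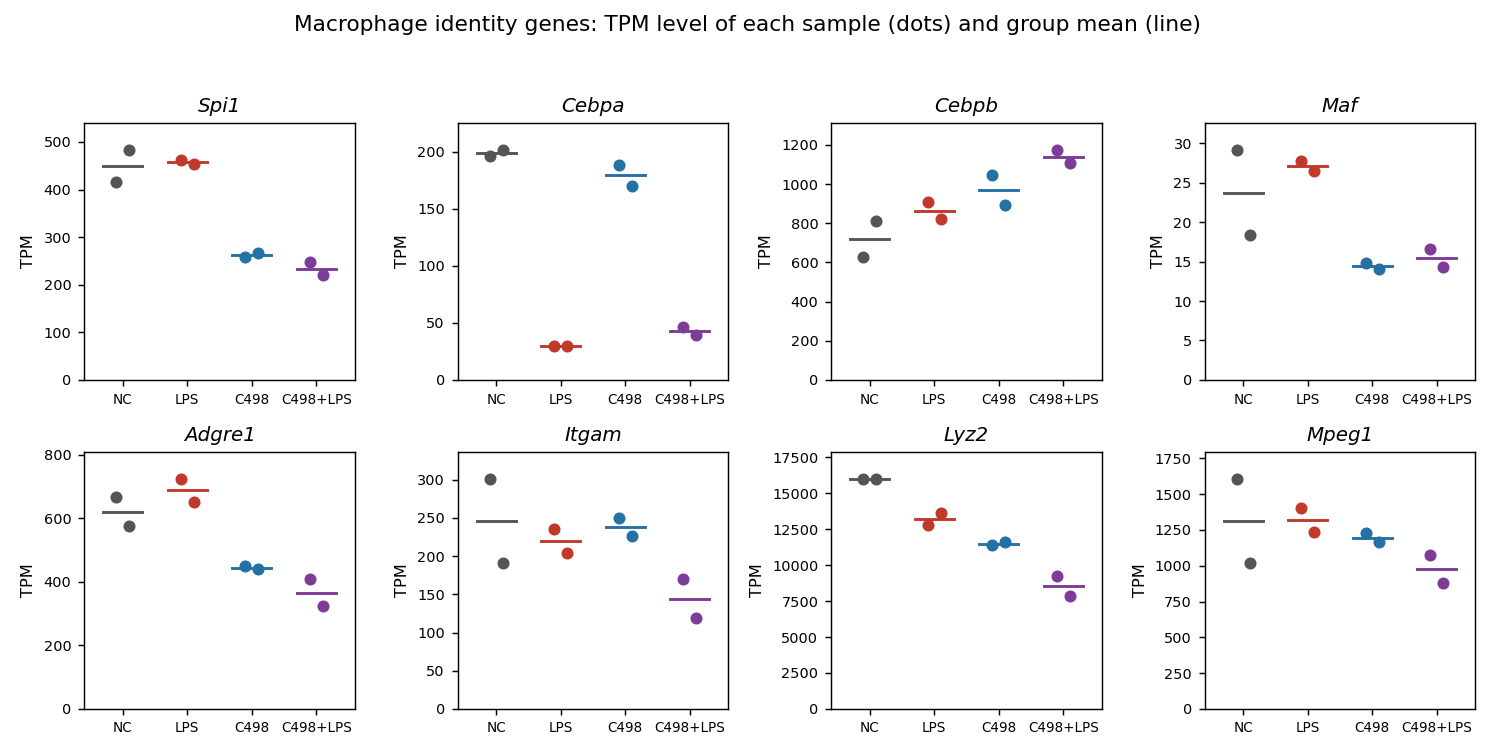
TPM level (linear axis from 0) of the 8 genes in each sample, with dots for the 2 samples of a group and a line at their mean. Cebpa was near 200 TPM in NC and near 30 TPM in LPS, and Spi1, Adgre1 and Lyz2 were lower in both C498 groups than in NC.

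Cebpa, the C/EBP factor of committed myeloid cells, stood at 196 and 201 TPM in NC and at 29.6 and 29.7 TPM in LPS. In C498 it stood at 189 and 170.0 TPM, and in C498+LPS at 46.6 and 39.7 TPM. The samples without LPS were all above those with LPS, with a wide gap, and the order of the group means was NC, C498, C498+LPS and LPS. Cebpb, its inflammatory paralogue, gave 628 and 812 TPM in NC, 906 and 824 TPM in LPS, 1047 and 892 TPM in C498 and 1173 and 1106 TPM in C498+LPS. NC, the highest group for Cebpa, was the lowest for Cebpb and C498+LPS the highest, and only the LPS and C498 samples overlapped. Both genes consist of a single exon. Cebpa lies at chr7:35119293-35121928 and Cebpb at chr2:167688915-167690418, each on the plus strand (GRCm38, GENCODE M21).

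The 250 bases upstream of these genes are shown because NC was the highest group for one paralogue and the lowest for the other, together with those of Itgam, a textbook target of PU.1. The windows are from RefSeq (GRCm38.p6), at chr7:35119043-35119292 for Cebpa, chr2:167688665-167688914 for Cebpb and chr7:128062390-128062639 for Itgam, plus strand, 5′ to 3′. Capitals mark TATAAA in Cebpa, TGACG in Cebpb and GAGGAA in Itgam, on either strand.
Cebpa: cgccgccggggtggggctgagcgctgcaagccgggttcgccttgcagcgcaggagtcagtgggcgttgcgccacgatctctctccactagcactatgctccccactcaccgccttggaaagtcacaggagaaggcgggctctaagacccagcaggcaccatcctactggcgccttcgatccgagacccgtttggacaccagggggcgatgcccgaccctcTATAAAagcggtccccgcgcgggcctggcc
Cebpb: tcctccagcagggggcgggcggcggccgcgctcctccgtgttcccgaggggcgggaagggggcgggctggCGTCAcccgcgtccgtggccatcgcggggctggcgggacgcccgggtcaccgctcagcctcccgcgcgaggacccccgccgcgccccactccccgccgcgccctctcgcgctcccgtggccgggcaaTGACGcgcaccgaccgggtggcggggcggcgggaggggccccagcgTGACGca
Itgam: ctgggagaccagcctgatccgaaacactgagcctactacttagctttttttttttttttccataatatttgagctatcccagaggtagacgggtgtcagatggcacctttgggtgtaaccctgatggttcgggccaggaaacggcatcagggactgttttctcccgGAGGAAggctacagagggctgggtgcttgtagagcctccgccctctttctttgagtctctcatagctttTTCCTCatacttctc

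The windows differ in base composition. G and C made up 66.4% of the bases for Cebpa, 81.6% for Cebpb and 49.6% for Itgam, where the median over 32851 promoter windows was 52.4%. Cebpa holds TATAAA at positions -30 to -25 from its start, and 12.4% of all windows hold these letters on either strand. Cebpb holds TGACG, the core of a cAMP response element, at -53 to -49 and -7 to -3, and its complement at -180 to -176, and 17.8% of all windows hold it. Itgam holds GAGGAA, a core that PU.1 binds, at -84 to -79 and its complement at -15 to -10, and 23.3% of all windows hold it. These sites do not overlap each other. The letters TTGCNNAA of a C/EBP site (in 9.56% of windows), the NF-kB motif (in 1.41%) and TGANTCA of an AP-1 site (in 6.75%) were in none of the 3 windows on either strand. Of the 8 genes, 5 had a window. Those of Lyz2 and Mpeg1 held none of the 6 motifs, although the Lyz2 window lies partly within the annotated Lyz2 gene and overlaps an exon.

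Spi1, at chr2:91082390-91115756 (plus strand), gave 417 and 483 TPM in NC and 461 and 454 TPM in LPS. In C498 it gave 257 and 266 TPM, and in C498+LPS 247 and 221 TPM. All 4 samples with C498 lay below all 4 without it. Maf, on the minus strand at chr8:115682942-115707794, was the least abundant of the 8 genes, at 29.1 and 18.4 TPM in NC and 27.7 and 26.5 TPM in LPS. With C498 it stood at 14.8 and 14.0 TPM, and with C498+LPS at 16.6 and 14.3 TPM. Its C498 samples were all below its samples without C498, although the NC samples differed from each other by 1.59-fold. Gene length in the deposited table was 3223 bases for Maf, against 8241 bases when all its annotated exons are merged, and 2034 against 2695 bases for Spi1, so the level of these genes rests on the transcripts counted.

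Adgre1 encodes F4/80, the adhesion receptor by which mouse macrophages are usually stained. It spans chr17:57358691-57483527 on the plus strand and was at 666 and 574 TPM in NC, 723 and 652 TPM in LPS, 449.5 and 439.8 TPM in C498 and 408 and 323 TPM in C498+LPS. As with Spi1, the samples with C498 were all below those without it. Itgam encodes the alpha chain of the complement receptor CD11b/CD18, at chr7:128062640-128118491 on the plus strand. Its levels were 301 and 191 TPM in NC, 236 and 204 TPM in LPS, 250.5 and 226 TPM in C498 and 170 and 119 TPM in C498+LPS. The C498+LPS samples were the lowest, and the other groups overlapped, with the NC samples 1.58-fold apart.

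Lyz2, the gene of the bacteriolytic enzyme whose locus drives Cre in many myeloid mouse lines, lies on the minus strand at chr10:117277331-117282321. It stood at 15989 and 15984 TPM in NC, 12790 and 13659 TPM in LPS, 11415 and 11579 TPM in C498 and 9242 and 7831 TPM in C498+LPS. No 2 groups overlapped, and the order of the means from the highest was NC, LPS, C498 and C498+LPS. Mpeg1, at chr19:12460779-12465283 (plus strand), encodes a pore-forming protein of phagosomes. It was at 1605 and 1018 TPM in NC, 1401 and 1236 TPM in LPS, 1228 and 1166 TPM in C498 and 1073 and 879 TPM in C498+LPS. The NC samples spanned all those of LPS and C498, and the C498+LPS mean was the lowest.

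LPS was set against NC to see which of the 8 genes responded to LPS in vehicle-treated cells. Cebpa responded: its mean fell from 199 ± 3.59 TPM (SD, n = 2) to 29.6 ± 0.0849 TPM (SD, n = 2), a 6.71-fold fall. On the log2(TPM + 1) scale, on which all changes here are given, it changed by -2.71 (SE 0.109, limma adjusted p = 8.86e-06). A gene was counted as a DEG when its fold change was at least 2 and its adjusted p at most 0.05, and as passing the test when its adjusted p was at most 0.05. Cebpa was the 1 DEG of the 8 genes, in the lower direction, where 6.68% of all tested genes were lower DEGs and 5.55% were higher DEGs. Without the fold criterion it was again the 1 gene that passed, where 19.8% of all tested genes were lower and 9.84% higher.

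The other 7 genes did not pass the test with LPS. Lyz2 came closest, at -0.27 (95% interval -0.51 to -0.03, limma adjusted p = 0.0829), and Cebpb stood at 0.27 (-0.05 to 0.60, limma adjusted p = 0.187). Spi1 stood at 0.03 with an interval of -0.21 to 0.26, the narrowest of the 8. The intervals were wider for Adgre1 (-0.16 to 0.46), Maf (-0.27 to 0.71), Mpeg1 (-0.44 to 0.53) and Itgam (-0.69 to 0.44). Cebpb was at 0.46 without NC replicate 2 (limma adjusted p = 0.0424) and at 0.09 without NC replicate 1 (0.62). Maf was at 0.54 without NC replicate 1 (limma adjusted p = 0.033) and at -0.10 without NC replicate 2 (0.607). The median over the 8 genes was 0.04, beside -0.17 over all tested genes. Centring each sample on its median gene moves every change in this comparison up by about the latter amount and leaves Cebpa at -2.54. Over all tested genes it turns 677 higher and 814 lower DEGs into 853 and 530.

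**Figure D2:**
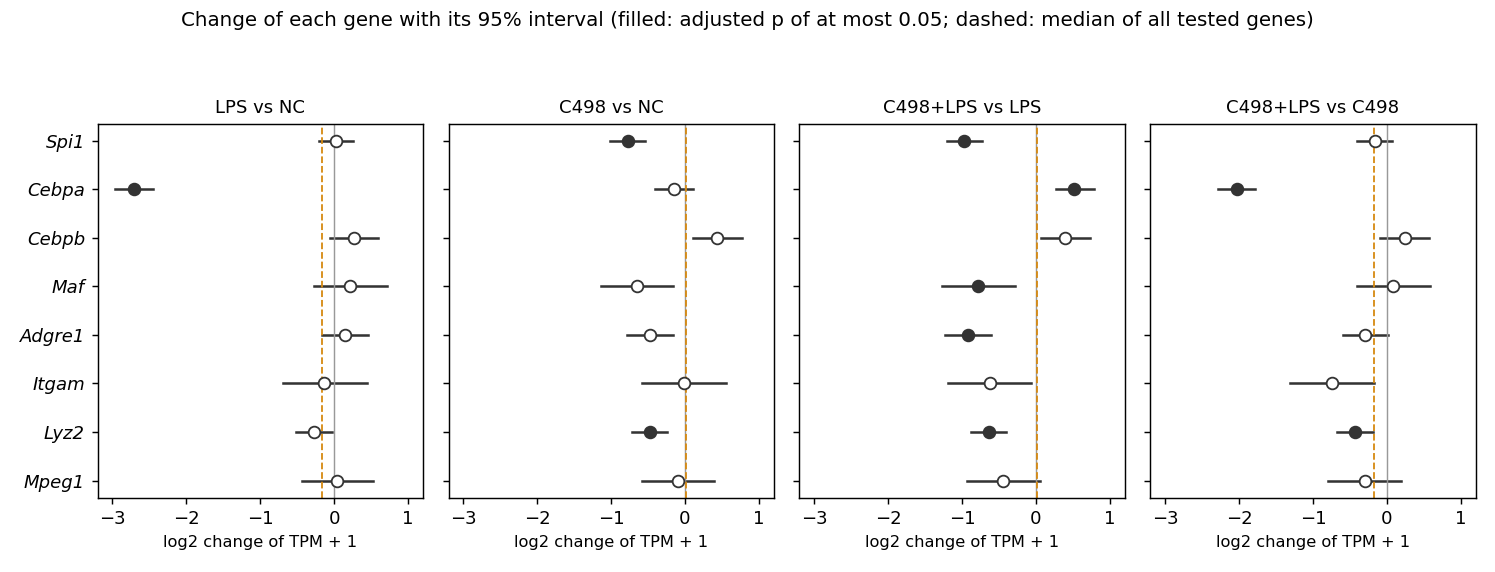
Change of each gene on the log2(TPM + 1) scale with its 95% interval, in 4 comparisons. Filled dots had an adjusted p of at most 0.05 and the dashed line is the median of all tested genes. Cebpa was at -2.71 and -2.03 in LPS vs NC and C498+LPS vs C498, and Spi1 at -0.77 and -0.97 in C498 vs NC and C498+LPS vs LPS.

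The comparison of C498 with NC asks what the compound did with no LPS present. Spi1 fell to 58.2% of its NC level, from 449.6 ± 46.7 TPM to 262 ± 6.24 TPM (SD, n = 2 each), a change of -0.77 (SE 0.1, limma adjusted p = 0.00398). Lyz2 fell to 71.9%, a change of -0.48 (SE 0.102, limma adjusted p = 0.0235). None of the 8 genes was a DEG in either direction in limma, while 1.36% of all tested genes were lower DEGs and 5.64% higher DEGs (687 higher and 166 lower, or 565 and 269 with centring). Spi1 and Lyz2 were the 2 of 8 that passed the test, both lower, where 6.19% of all tested genes were lower and 9.29% higher. At an unadjusted p under 0.05, 4 genes were lower (Adgre1, Spi1, Maf and Lyz2) and 1 higher (Cebpb), where 3898 of the 12189 tested genes had such a p in either direction.

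Adgre1 was at 71.7% of NC (log2 change -0.47, limma adjusted p = 0.0523), Maf at 60.7% (-0.65, limma adjusted p = 0.0789) and Cebpb at 1.35-fold (0.44, limma adjusted p = 0.0788), each short of the threshold. Adgre1 and Maf passed when each sample was centred on its median gene (limma adjusted p = 0.0207 and 0.0121). Without NC replicate 2 Maf was at -0.97 (limma adjusted p = 0.0164) and Cebpb at 0.62 (0.0388), but without NC replicate 1 they were at -0.33 (0.125) and 0.25 (0.189), so both values rest on which NC sample is kept. Without either C498+LPS sample Adgre1 passed (0.0416 and 0.0419). Cebpa, Mpeg1 and Itgam stood at -0.15, -0.10 and -0.01, with intervals of -0.41 to 0.11, -0.58 to 0.39 and -0.58 to 0.55. The median over the 8 genes was -0.31, beside 0.01 over all tested genes. The Spi1 result held in 15 of 16 alternative settings, the exception being the fit without C498 replicate 1 (limma adjusted p = 0.0507). That of Lyz2 held in 5 of 16 and was lost, among others, without either NC, LPS or C498 sample, with adjusted p from 0.0527 to 0.184 over those 6 fits.

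C498+LPS was compared with LPS to see how the compound altered the genes in challenged cells. Here 4 of the 8 genes were lower and 1 was higher at the adjusted p alone, where 7.70% of all tested genes were lower and 9.08% higher. Spi1 fell to 51.2% of the LPS level (234 ± 18.4 against 457 ± 5.19 TPM), a change of -0.97 (SE 0.1, limma adjusted p = 0.00155). Adgre1 fell to 53.2% (-0.92, SE 0.132, limma adjusted p = 0.0047), Maf to 57.0% (-0.78, SE 0.209, limma adjusted p = 0.0447) and Lyz2 to 64.5% (-0.64, SE 0.102, limma adjusted p = 0.00731). Cebpa rose 1.46-fold, from 29.6 to 43.1 TPM (0.52, SE 0.109, limma adjusted p = 0.0185), which left it at a level between LPS and NC but far nearer to LPS.

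None of these reached a fold change of 2 on the log2(TPM + 1) scale, so none was a DEG in limma, where 2.18% of all tested genes were lower DEGs and 5.39% higher DEGs. At an unadjusted p under 0.05, 5 genes were lower (Itgam beside the 4) and 2 higher (Cebpa and Cebpb), where 31.2% of all tested genes had such a p. Spi1 and Adgre1 lay just short of the fold limit and both passed it without C498+LPS replicate 1, at -1.05 and -1.09. Itgam was at 65.6% of LPS (-0.62, interval -1.19 to -0.06, limma adjusted p = 0.128), Mpeg1 at 74.0% (-0.44, interval -0.93 to 0.05, limma adjusted p = 0.201) and Cebpb at 1.32-fold (0.40, interval 0.07 to 0.73, limma adjusted p = 0.101). The Itgam difference passed with centring (limma adjusted p = 0.0372), and that of Cebpb without either NC sample (0.0434 and 0.0433). Spi1 passed under all 16 alternatives (limma adjusted p from 0.00107 to 0.0239) and Adgre1 under 15, the exception being the fit without LPS replicate 1 (0.053). The result for Cebpa was lost without LPS replicate 1, LPS replicate 2 or C498+LPS replicate 1 (limma adjusted p = 0.104, 0.0995 and 0.0734), with centring (0.0736) and in the fit of LPS and C498+LPS alone (0.0538). For Maf it was lost without any 1 of the 6 samples of LPS, C498 and C498+LPS (0.0954 to 0.231), with no filter on low values (0.101) and with no variance trend (0.0631). For Lyz2 it was lost without either LPS sample or C498+LPS replicate 2 (0.0527 to 0.0855), with centring (0.0508), in the fit of LPS and C498+LPS alone (0.0744) and with no filter on low values (0.0955). The median over the 8 genes was -0.63, beside 0.01 over all tested genes.

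The response to LPS in cells that had received C498 was read from C498+LPS against C498. Cebpa fell again, 4.16-fold, from 179 ± 13.3 TPM to 43.1 ± 4.89 TPM (SD, n = 2 each), a change of -2.03 (SE 0.109, limma adjusted p = 8.99e-05). It was the 1 DEG of the 8 genes, where 3.13% of all tested genes were lower DEGs and 2.52% higher DEGs (307 higher and 381 lower, or 434 and 196 with centring). At the adjusted p alone 2 of 8 were lower, where 11.7% of all tested genes were lower and 4.51% higher. The second was Lyz2, which fell to 74.2% of the C498 level (-0.43, SE 0.102, limma adjusted p = 0.0304), a result that held in 7 of 16 alternatives. With each sample centred on its median gene the Lyz2 change was -0.22 (limma adjusted p = 0.538). It was also lost without either LPS sample, either C498 sample or C498+LPS replicate 2 (0.0813 to 0.198).

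Itgam stood at 60.5% of C498 (-0.74, interval -1.31 to -0.18, limma adjusted p = 0.0785). It passed without either NC sample (limma adjusted p = 0.0392 and 0.0391). Adgre1 (-0.29), Mpeg1 (-0.30), Spi1 (-0.16), Maf (0.09) and Cebpb (0.24) did not pass, with limma adjusted p of 0.178 to 0.803. The median over the 8 genes was -0.30, beside -0.18 over all tested genes. The Cebpa fall held in all 16 alternatives of this comparison, as it did in all 16 of LPS against NC, with adjusted p no higher than 0.00711 and 0.00305.

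Whether C498 altered the response to LPS was tested by the interaction, the difference between the LPS responses with and without C498. None of the 8 genes passed in limma, with or without the fold criterion. Of all tested genes 0.0738% were higher DEGs and 0.394% lower DEGs, and 0.0738% and 0.418% passed at the adjusted p alone. These DEGs, 9 higher and 48 lower, became 3 and 9 with no variance trend. At an unadjusted p under 0.05 there were 2 of 8, where 11.1% of all tested genes had such a p. Cebpa was higher, with a fall with LPS that was smaller by 0.67 (interval 0.31 to 1.03, limma adjusted p = 0.156), and Adgre1 was lower (-0.44, limma adjusted p = 0.448). The narrowest interval of the 8 was that of Spi1 (-0.52 to 0.14), and the widest that of Itgam (-1.41 to 0.19). The comparisons share samples: each group serves 2 of the comparisons between groups, and every group serves the interaction.

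Ratios taken within a sample do not depend on how the sample was scaled. The ratio of Cebpa to Cebpb levels was 0.313 and 0.248 in NC and 0.0326 and 0.0360 in LPS, an 8.17-fold lower mean. It was 0.180 and 0.191 in C498 and 0.0397 and 0.0359 in C498+LPS, a 4.91-fold lower mean. The samples with LPS were all below those without it. Both comparisons gave an exact two-sided permutation p of 0.333, the lowest that groups of 2 allow, so these ratios cannot pass a threshold of 0.05.

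**Figure D3:**
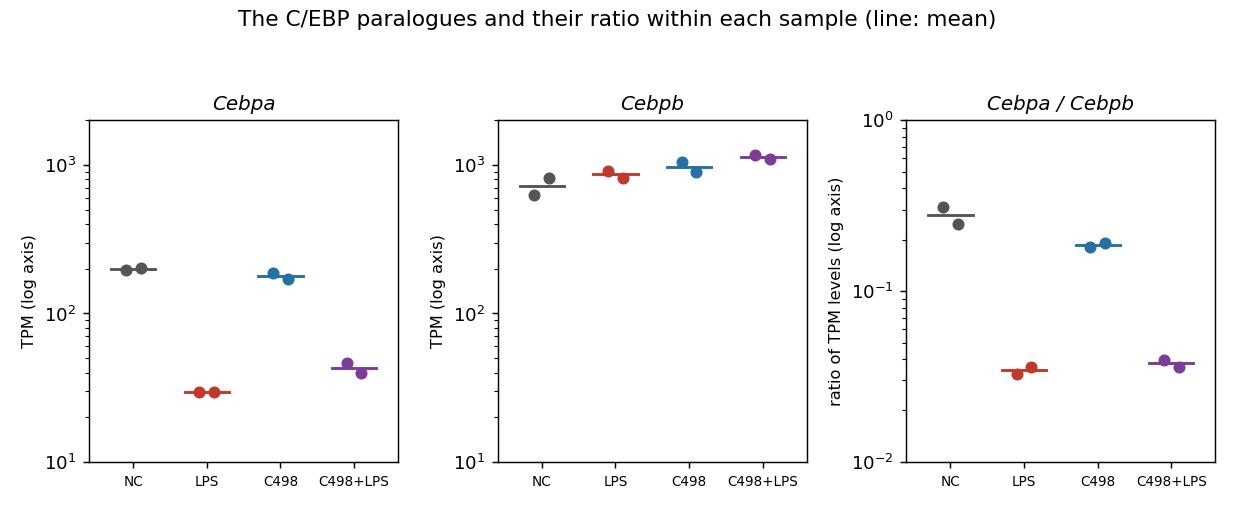
TPM levels of Cebpa and Cebpb and the ratio of Cebpa to Cebpb within each sample (log axes), with dots for samples and lines for group means. The ratio was 0.313 and 0.248 in NC and 0.0326 and 0.0360 in LPS, and the samples with LPS were all below those without it.

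Of the small Maf proteins, which have no activation domain, Maff and Mafk rose with LPS (2.36 and 1.29, limma adjusted p = 2.75e-05 and 0.00014) and with C498 alone (2.70 and 1.28, limma adjusted p = 3.94e-05 and 0.000353). Mafg did not pass in these 2 comparisons, and the large Maf genes Mafa and Nrl stayed below 1 TPM.

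Of the other C/EBP genes, Cebpg and Ddit3 (CHOP), which act as partners of the larger C/EBPs, fell with LPS (-0.86 and -0.69, limma adjusted p = 0.00451 and 0.01). Cebpd, an acute-phase factor, was lower in C498+LPS than in LPS (-1.11, limma adjusted p = 0.0111), at 10.5 and 12 against 23.8 and 27.3 TPM. Cebpe, the granulocytic member, stayed at or below 1.23 TPM and was not tested. The ETS relatives of PU.1, Spib and Spic, were between 0.21 and 2.45 TPM and were not tested either.

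A list of 17 other macrophage transcription factors, chosen like the genes themselves with earlier results of these data known, had 16 tested members. With LPS 7 of them were lower and 2 higher at the adjusted p, with a median of -0.45, beside 19.8% lower and 9.84% higher and a median of -0.17 over all tested genes. The falls included Tfeb (-1.90), a regulator of lysosome genes, Fli1 (-1.28), an ETS factor, and Rxra (-1.22). Between C498 and NC 5 were lower and 2 higher, the latter Klf4 (2.58, limma adjusted p = 0.000152) and Bhlhe40 (1.2), with a median of -0.24, beside 6.19% lower and 9.29% higher and a median of 0.01 over all tested genes. Between C498+LPS and LPS 5 were lower and 5 higher (median -0.14), beside 7.70% and 9.08% (median 0.01). Irf8, an interferon regulatory factor that partners PU.1, rose from 118 and 93.0 to 299 and 269.6 TPM (1.43, limma adjusted p = 0.00122), opposite in direction to Spi1. Between C498+LPS and C498 9 were lower and 2 higher (median -0.62), beside 11.7% and 4.51% (median -0.18).

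The list of other surface and lysosome markers had 27 tested genes of 28, and more of them were lower than higher at the adjusted p in each comparison, as held for all tested genes in LPS vs NC and C498+LPS vs C498 but not in the other 2, by the shares just given. With LPS 11 were lower and 1 higher (median -0.38), with C498 7 and 2 (-0.33), in C498+LPS against LPS 13 and 1 (-0.34) and in C498+LPS against C498 11 and 1 (-0.45). Cd14, the LPS co-receptor, was the gene that rose in all 4, from 235 and 252 TPM in NC to 1352 and 1250 TPM in LPS (2.41, limma adjusted p = 4.24e-06). Csf1r, the receptor for the macrophage growth factor and a PU.1 target, fell in every comparison but C498 with NC, where it was -0.44 (limma adjusted p = 0.143). Adgre5 (CD97), of the same receptor family as Adgre1, fell with LPS (-1.71, limma adjusted p = 0.000157) and did not pass in either C498 comparison. Among the partners of CD11b, Itgb2, its CD18 chain, was lower in C498+LPS than in LPS (-0.67, limma adjusted p = 0.0144) and than in C498 (-0.50, limma adjusted p = 0.0429). Itgal, the alpha chain of LFA-1, rose with LPS (0.93, limma adjusted p = 0.00956) and was lower in C498+LPS than in LPS (-1.48, limma adjusted p = 0.00288). Of 5 myeloid growth factor receptors 2 were lower with LPS (Il6ra and Csf1r), 1 with C498 (Csf3r), 3 in C498+LPS against LPS and 2 in C498+LPS against C498. Over all tested genes 19.8%, 6.19%, 7.70% and 11.7% were lower in the same order.

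Surface and lysosome markers of macrophages ranged widely in level. Cd68, a lysosomal glycoprotein of macrophages, was between 2208 and 2913 TPM and Ctss between 5797 and 7827 TPM in the 8 samples. Others were much lower, with Marco at 16.5 to 52.7 TPM, Mrc1 at 17.0 to 29.3 TPM, Mertk at 12.4 to 23.7 TPM and Cd163 at most 0.19 TPM. Markers of large resident peritoneal macrophages were low, with Gata6 between 1.81 and 7.71 TPM and Timd4 between 0.82 and 2.62 TPM. An exception was Serpinb2, which rose with LPS (2.47) and with C498 (2.17). In C498+LPS against LPS, Alox15 (-1.86) and Prg4 (-1.01) were lower and Gata6 (1.22, limma adjusted p = 0.0271) and Serpinb2 (0.82) higher. Markers of recruited peritoneal macrophages were low as well, with a sum of 2.37 to 6.08 TPM over 6 genes, Ccr2 at most 1.06 TPM and Cx3cr1 at most 0.89 TPM, although thioglycollate draws in such cells.

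Markers of other cells moved with C498. All 5 fibroblast markers (Col1a1, Col1a2, Col3a1, Dcn and Pdgfra) rose with C498 alone, and 4 were higher in C498+LPS than in LPS. Of all tested genes 9.29% and 9.08% were higher at the adjusted p in these comparisons. The summed level of the fibroblast markers was 150 to 192 TPM in NC, 176 to 200.5 TPM in LPS, 633 to 750.0 TPM in C498 and 618 to 911 TPM in C498+LPS, and none was at 0. Of 5 mesothelial markers 2 passed in each of these comparisons, Wt1 and Krt19, both higher, with sums of 4.66 to 5.58, 5 to 5.36, 14.8 to 20.9 and 15.5 to 24.5 TPM in the same order. The part of these cells in the lower Spi1, Adgre1, Maf and Lyz2 levels was not tested. Over the same comparisons the 27 surface and lysosome markers had medians of -0.33 and -0.34, with 7 and 13 lower and 2 and 1 higher.

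Neutrophils also carry Itgam, Lyz2 and Spi1. Of 12 neutrophil markers 6 were below 1 TPM throughout, among them Ngp and Elane, listed at 0 in all samples, and 5 were tested. Their summed level was 227 to 243 TPM in NC, 220.0 to 233 TPM in LPS, 141 to 150.5 TPM in C498 and 146 to 168 TPM in C498+LPS, most of it from S100a8 and Mmp8. S100a9, which neutrophils express with S100a8, stayed at or below 0.86 TPM. Of the 5 tested, with LPS 1 was higher (Mmp9), with C498 2 were lower (S100a8 and Retnlg) and in C498+LPS against LPS 2 (Mmp8 and Retnlg). The shares over all tested genes were 9.84% higher, 6.19% lower and 7.70% lower in the same order. The part of neutrophils in the Itgam, Lyz2 and Spi1 levels was not tested. Summed markers of eosinophils (at most 2.21 TPM, Epx listed at 0), mast cells (at most 22.9 TPM), B cells (at most 13.8 TPM), T cells (at most 7.61 TPM) and dendritic cells (at most 4.95 TPM) were low, and none of their tested genes passed except Zbtb46, which was higher in C498+LPS than in LPS (1.21, limma adjusted p = 0.0354).

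**Figure D4:**
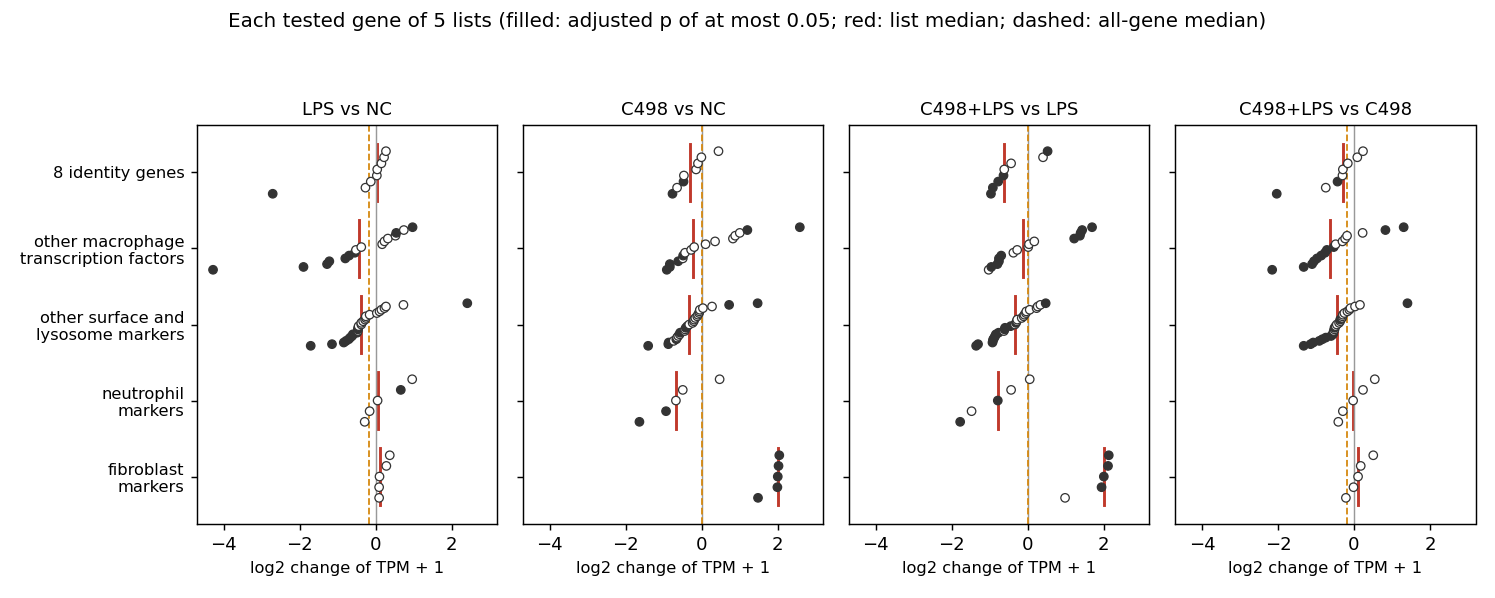
Change of every tested gene in 5 lists on the log2(TPM + 1) scale, 1 dot per gene, in 4 comparisons. Filled dots had an adjusted p of at most 0.05, red lines are list medians and the dashed line is the median of all tested genes. Fibroblast markers had a median of 2.0 in both C498 comparisons, with Pdgfra lower than the rest, where the 8 identity genes had medians of -0.31 and -0.63.

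The 8 genes did not share 1 pattern over the 8 samples. On log2(TPM + 1), Pearson's r between pairs ranged from 0.93 for Adgre1 with Spi1 to -0.87 for Cebpb with Lyz2, and it was 0.91 for Itgam with Mpeg1 and -0.01 for Cebpa with Spi1. All points of such a correlation share their libraries and the design of 4 groups, and it is given as a description. Over 8863 genes with a mean level of at least 5 TPM, those most like each gene were Ly9 (0.995), Tnfrsf1a and Lrp10 for Adgre1, Naip2 (0.995), Erlin2 and Rragc for Itgam, and Tusc1 (0.993), Tsc22d4 and 2610001J05Rik for Spi1. They were Cd300lb (0.998), Rbm10 and Prxl2c for Cebpa, Tlr8 (0.985), Zfp992 and Cr1l for Maf, Rnf130 (0.996), Coro1b and 5830432E09Rik for Lyz2, and Ogt (0.989), Sft2d2 and Ago1 for Mpeg1. Cebpb had the least close neighbours, among them Sat1 (0.913) and Ip6k2 (0.906). Cd300lb, an activating myeloid receptor, went from a mean of 73.2 TPM in NC to 5.61 TPM in LPS, 63.6 TPM in C498 and 8.86 TPM in C498+LPS, the group order of Cebpa.

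Overlapping or similar genes could exchange reads with 5 of the 8 genes. For 3 of them the partner is on the opposite strand, and the use of strand in counting is not stated. Cebpb shares 312 exon bases with Tmem189 on the opposite strand, which was at 115 to 238 TPM and fell with LPS (-0.55, limma adjusted p = 0.00802). The antisense genes Gm45091 at Cebpa (51 shared bases, at most 1.37 TPM) and Gm15655 at Maf (440 shared bases, at most 6.75 TPM) were low. Itgam shares 3450 exon bases with Gm49368 on the same strand, which was at 2.85 to 8.53 TPM. Lyz2 has a close paralogue in Lyz1: of the windows of 50 bases along the Lyz2 transcript 15.4% occur in Lyz1, of those of 100 bases 1.97%, and of 150 bases none. The level of Lyz1 was 0.00422 to 0.00557 of that of Lyz2 in the 8 samples.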

How the data were processed

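RNA of 8 samples was sequenced on the Illumina platform after TruSeq library preparation. The submitters' processing notes list fastp, HISAT2, StringTie and RSEM, without versions, for filtering, alignment, assembly and quantification. The values the authors deposited are TPM for each gene in each sample, beside group means, gene lengths and annotation. Genome build and annotation are not given in the sources used here. TPM sums to the same total in each sample, so the depth is unknown. Between 17528 and 18975 genes were above 0 in a sample.

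Values were transformed as log2(TPM + 1). The 12189 genes with a mean of at least 1 TPM went into limma 3.58.1 (R 4.3.3), in 1 fit of all 8 samples with 1 mean per group and a variance trend, and p was adjusted over them for each comparison (Benjamini-Hochberg). Across these genes r between replicates was 0.962 (NC) to 0.981 (LPS). The median log2(TPM + 1) of the 2 samples was 4.03 and 3.71 in NC and 3.76 and 3.65 in LPS. It was 4 and 3.99 in C498 and 3.80 and 3.76 in C498+LPS, so the NC samples were furthest apart. The thresholds were those of the authors' DESeq2 test on counts, which was not repeated. On simulated data for LPS against NC with 12189 genes, 169 of 200 changed genes (84.5%) were recovered and 7 unchanged genes were called. Recovery of changes below the fold limit, and recovery in the other comparisons, was not tested.

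The genes named are the 8 members, the genes of the lists, the 3 genes of at least 5 TPM closest to each member by Pearson's r, and overlapping genes. Some genes that this rule names are not reported here. The 8 genes and the lists were chosen with earlier results of these data known. Coordinates are from GENCODE M21 (GRCm38), in which 11874 tested identifiers (97.4%) were found. Figures used matplotlib 3.10.9. The alternatives were a pseudocount of 0.1 TPM, no filter or a mean of at least 5 TPM, centring, quantile normalization, fits restricted to the compared groups, no trend, no fold threshold, the replicate number as a block, and leaving out each sample.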

Additional observations from a re-analysis of the deposited data

How the results depend on the processing

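Of 632 refits of single genes over 40 results, 552 kept direction and side of the threshold, 41 lost and 19 gained significance and 20 changed direction, none of which passed the test. With no fold threshold the genes called became 2 for C498 against NC (Spi1 and Lyz2), 5 for C498+LPS against LPS and 2 for C498+LPS against C498. Centring gave 1 for C498+LPS against LPS (Spi1), and leaving out 1 sample gave 0 to 2, the 2 being Spi1 and Adgre1 without C498+LPS replicate 1. The other counts of called genes were 1 or 0 as given in every alternative run, the replicate block included (1 for LPS against NC, 0 for C498 against NC and for C498+LPS against LPS). The r of deviations of samples with the same number was 0.102 to 0.168 for the 3 pairs of groups with NC and 0.0397 to 0.0417 for the other 3, and as not all exceed 0.1 and no label ties the numbers, the samples are taken to share only a number. With the replicate block Adgre1 and Maf passed for C498 against NC (limma adjusted p = 0.015 and 0.0396), and Itgam for C498+LPS against LPS (0.0211) and against C498 (0.0123).

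Directions that changed were, for LPS against NC, Itgam with centring (0.04) or without NC replicate 1 (0.20), Spi1 with quantile normalization (-0.12) or without NC replicate 1 (-0.08), Maf without NC replicate 2 (-0.10), and Mpeg1 with quantile normalization (-0.03), without NC replicate 2 (-0.29) or without LPS replicate 1 (-0.05). For C498 against NC they were Itgam with quantile normalization (0.01), without NC replicate 1 (0.32) or without C498 replicate 2 (0.06), and Mpeg1 without NC replicate 1 (0.23). For C498+LPS against C498 they were Spi1 with centring (0.05) and Maf without C498+LPS replicate 1 (-0.01). For the interaction they were Cebpb with centring (0.01) or without NC replicate 1 (0.15), LPS replicate 1 (0.03), C498 replicate 1 (0.08) or C498+LPS replicate 2 (0.0045), and Maf without NC replicate 2 (0.19). Over all fits without 1 sample these changes ran from -0.46 to 0.20 (Itgam), -0.08 to 0.13 (Spi1), -0.10 to 0.54 (Maf) and -0.29 to 0.37 (Mpeg1) for LPS against NC, from -0.34 to 0.32 (Itgam) and -0.42 to 0.23 (Mpeg1) for C498 against NC, from -0.01 to 0.19 (Maf) for C498+LPS against C498, and from -0.22 to 0.15 (Cebpb) and -0.45 to 0.19 (Maf) for the interaction. Their cause was not tested. Quantile normalization sets Lyz2 equal in NC, LPS and C498, where it held the same rank, so its change there is 0 by construction. Centring shifts the median of all genes from 0.01 to -0.11 for C498 against NC. With TPM alone and 2 samples a group, counting error cannot be separated from other spread.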
